A study of Mus musculus with 6 samples.

Results

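Genes of the major histocompatibility complex (MHC) and of peptide loading were compared between CPN-treated and control cultures of RAW 264.7, a mouse macrophage line that can be driven to form bone-resorbing osteoclasts. The members were all rows whose symbol starts with H2-, the mouse MHC prefix, together with B2m, Cd74, Ciita, Nlrc5, Tap1, Tap2, Tapbp, Tapbpl, Erap1 and Ifi30. This gave 53 of 23282 gene rows, 43 of them H2- rows. The 6 libraries were 3 controls and 3 CPN samples, all of RAW 264.7 cells on day 5 of osteoclast differentiation, and the series title names a 60 kDa chaperonin. The labels give neither the chaperonin's source nor its dose or timing, and do not say whether the samples were separate cultures, so each p-value reflects only how far these libraries scatter, and that scatter may be technical. RAW 264.7 came from a BALB/c mouse, which carries the d haplotype of the MHC, whereas the mm10 reference is C57BL/6, of the b haplotype. How far allelic differences moved reads between MHC rows was not tested.

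MHC class I molecules show peptides from inside the cell to CD8 T cells. A class I heavy chain (H2-K, H2-D and the non-classical Q, T and M genes) pairs with beta-2 microglobulin and receives peptides that the TAP1-TAP2 transporter carries into the endoplasmic reticulum, with help from tapasin and the trimming peptidase ERAP1. MHC class II molecules show peptides of endocytosed proteins to CD4 T cells, after the invariant chain CD74 has escorted them to endosomes and the H2-DM chaperone has exchanged its remnant for peptide. NLRC5 and CIITA are the coactivators of class I and class II promoters, and both are recruited by factors bound to a shared promoter module of S, X and Y boxes.

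Between the groups, 5 of the 23 members that could be tested were higher in CPN cells and 1 was lower (edgeR quasi-likelihood fit, Benjamini-Hochberg adjusted p under 0.05). That is 21.7% of tested members higher, beside 7.63% of all 11092 genes tested, and 4.35% lower, beside 6.39% of all genes. The members that rose were the heavy chain genes H2-D1 and H2-Q9, B2m, the transporter gene Tap1 and Cd74, and the member that fell was Ifi30, a thiol reductase that unfolds antigens in endosomes. Levels of the groups did not overlap for 10 of 23 tested members (43.5%), where 32.6% of all tested genes did not overlap, and for 9 of these 10 the CPN values were the higher ones. The median log2 fold change was 0.55 over the tested members and -0.0078 over all tested genes. In bulk samples, fewer cells of a type and less RNA per cell cannot be told apart.

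The 3 promoter windows of B2m, H2-D1 and Tap1 are shown because these are the class I pathway genes that rose and have a window in RefSeq. Ifi30 is shown because it fell. H2-Aa was picked as the 1 of 8 class II chain, DM and O genes with TGACG and CCAAT at a like spacing to B2m and H2-D1. Each window runs 5′ to 3′ from 250 bases before to 50 bases after a start annotated in RefSeq (GRCm38.p6, the C57BL/6 sequence). GENCODE starts can differ: the H2-D1 window lies inside the GENCODE span of that gene, 35262730 to 35267499. Capitals mark matches on either strand to CCAAT (the Y box), TGACG (the core of a cyclic AMP response element, as in the X2 box), GAAANNGAA (the core of an interferon-stimulated response element) and the NF-kB consensus.
B2m (chr2:122147437-122147736, plus strand): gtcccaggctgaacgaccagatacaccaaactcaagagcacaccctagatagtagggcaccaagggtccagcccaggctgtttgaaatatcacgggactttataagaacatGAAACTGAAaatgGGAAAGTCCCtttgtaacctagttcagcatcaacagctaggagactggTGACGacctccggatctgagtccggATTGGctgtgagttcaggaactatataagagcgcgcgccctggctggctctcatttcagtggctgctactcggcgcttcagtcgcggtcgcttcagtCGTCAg
H2-D1 (chr17:35262844-35263143, plus strand): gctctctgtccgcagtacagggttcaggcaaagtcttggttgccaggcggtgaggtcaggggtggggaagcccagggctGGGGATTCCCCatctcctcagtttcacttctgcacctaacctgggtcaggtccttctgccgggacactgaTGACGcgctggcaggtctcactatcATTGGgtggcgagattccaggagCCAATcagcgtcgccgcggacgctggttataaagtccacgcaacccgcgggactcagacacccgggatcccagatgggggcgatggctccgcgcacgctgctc
Tap1 (chr17:34187306-34187605, plus strand): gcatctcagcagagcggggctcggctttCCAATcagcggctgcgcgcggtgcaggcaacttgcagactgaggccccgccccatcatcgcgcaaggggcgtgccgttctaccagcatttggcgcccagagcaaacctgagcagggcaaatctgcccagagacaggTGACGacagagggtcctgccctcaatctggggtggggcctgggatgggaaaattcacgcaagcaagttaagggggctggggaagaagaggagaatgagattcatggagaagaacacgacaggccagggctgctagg
H2-Aa (chr17:34287774-34288073, minus strand): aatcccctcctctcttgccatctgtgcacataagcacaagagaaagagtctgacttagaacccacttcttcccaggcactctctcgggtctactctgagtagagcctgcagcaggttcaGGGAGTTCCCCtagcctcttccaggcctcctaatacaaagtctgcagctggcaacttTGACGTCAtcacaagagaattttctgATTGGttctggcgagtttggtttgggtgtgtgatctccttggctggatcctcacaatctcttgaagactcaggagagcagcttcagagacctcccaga
Ifi30 (chr8:70766614-70766913, minus strand): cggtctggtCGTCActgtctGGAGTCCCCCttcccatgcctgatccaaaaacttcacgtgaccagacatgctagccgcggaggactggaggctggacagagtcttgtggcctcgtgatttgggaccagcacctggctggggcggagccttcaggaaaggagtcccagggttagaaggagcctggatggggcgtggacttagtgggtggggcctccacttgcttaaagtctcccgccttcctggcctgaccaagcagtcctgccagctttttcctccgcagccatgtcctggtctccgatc

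Windows were found for 36 of the 53 members. In B2m, H2-D1, H2-K1 and H2-M3 a TGACG match started 25 bases before a CCAAT match, and in H2-Q7 the offset was 24 bases. Offsets of 23 and 26 bases were found in H2-Aa, where 2 overlapping TGACG matches precede the CCAAT match. An offset of 20 to 30 bases occurred in 8 of 22 class I heavy chain genes (36.4%) and in 248 of 27025 genes with a window (0.918%). Among class II chain, DM and O genes it occurred in 1 of 8 (12.5%), H2-Aa. This range was set after the single matches had been seen. The 8 class I genes with the pair include H2-M10.1, H2-M10.3, H2-M10.4 and H2-M10.5, each at 30 bases, the end of the range. Their windows read CGTCA and then CCAAT. In B2m, H2-D1 and H2-K1 the letters read TGACG and then ATTGG, and the count includes both arrangements. The CCAAT match alone was in 19 of 22 class I heavy chain genes (86.4%) and 8 of 8 class II chain, DM and O genes, compared with 41.1% of all genes. NF-kB consensus matches were in 8 of 22 class I heavy chain genes (36.4%), in 1 of 8 class II chain, DM and O genes (H2-Aa) and in 5.14% of all genes. Some of these matches overlap each other, as in H2-D1 and H2-Aa. The GAAANNGAA core was in 2 of 22 heavy chain genes (H2-T23 and H2-T22), 9.09% beside 9.76% of all genes, and also in B2m and Erap1. In the Ifi30 window the CCAAT letters were not found, and in the Tap1 window CCAAT lies at base 29, ahead of TGACG at base 165, so the spaced pair was not found there. Many heavy chain genes arose as copies of each other, so their windows are not independent.

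**Figure D1:**
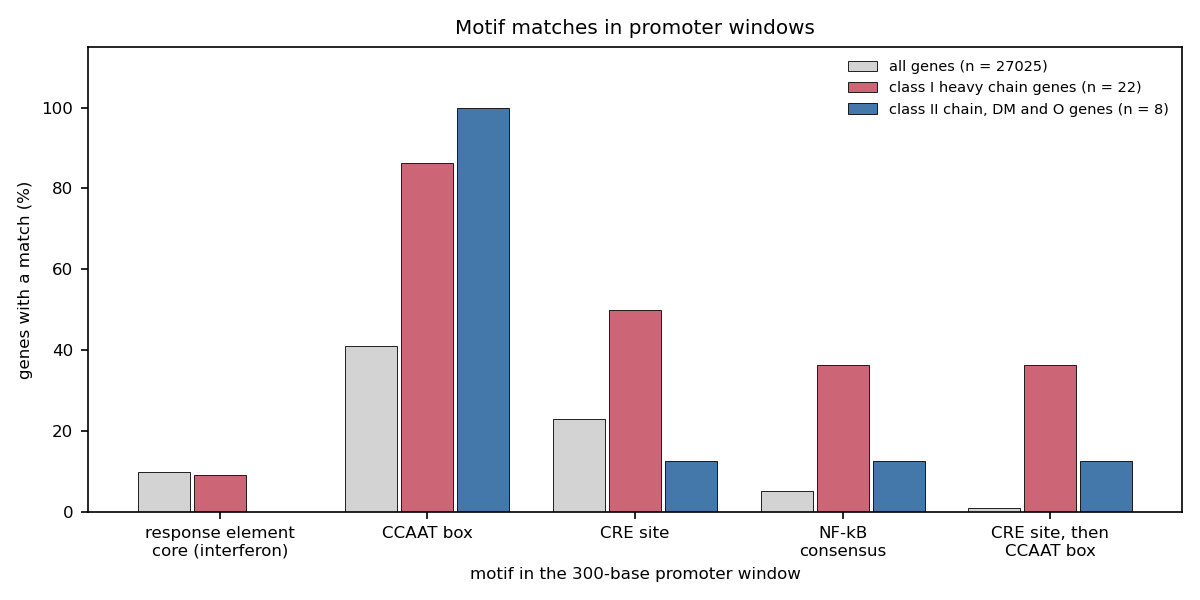
Share of genes (y axis, percent, from 0) whose 300-base promoter window holds each motif (x axis), for all 27025 genes with a window (grey), 22 class I heavy chain genes (red) and 8 class II chain, DM and O genes (blue); the last group of bars is TGACG (labelled CRE site) followed by CCAAT at an offset of 20 to 30 bases. The CCAAT bars reach 86.4% and 100% for class I and class II genes against 41.1% for all genes. Bars of the interferon element core count the exact letters GAAANNGAA only. They stand at 9.09% (class I), 0 (class II) and 9.76% (all genes). Every match is counted on either strand, also in the last group of bars.

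Most class I heavy chain counts lay in the row of H2-D1, which encodes the classical heavy chain H-2D (chromosome 17, 35262730 to 35267499, plus strand, GENCODE vM21 on mm10). It had 458, 648 and 529 CPM (counts per 1000000 counts of the library, after TMM scaling) in control 1 to 3, and the matching CPN values were 1052, 1175 and 1114 CPM. All 3 CPN libraries lay above all 3 controls, and the log2 fold change was 1.03 ± 0.163 (SE, n = 3 per group, edgeR adjusted p = 0.001). This call held in 13 of 13 alternative settings (log2 fold change 0.91 to 1.19). Whether reads of other heavy chain genes of the d haplotype, such as H2-L, fell in the H2-D1 row was not tested. H2-Q9, a non-classical Qa-region heavy chain gene, had 10.3, 5.28 and 9.01 CPM in control and 28.4, 39.7 and 22.9 CPM in CPN. Again the groups did not overlap, and the rise was 3.68-fold (log2 fold change 1.88 ± 0.376, SE, edgeR adjusted p = 0.00484), called in 13 of 13 alternative settings. Without both control 3 and CPN 1, a setting added after the data were seen, the adjusted p of H2-Q9 was 0.0847.

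H2-K1, the second classical heavy chain gene (chromosome 17, 33996017 to 34000347, minus strand), had 90.7, 67.5 and 72.9 CPM in control and 85.4, 147 and 158.5 CPM in CPN. Its CPN 1 value lay inside the control range, and the log2 fold change of 0.76 ± 0.243 did not pass (edgeR adjusted p = 0.0559). Without CPN 1 it passed, at 0.99 and an adjusted p of 0.0159, and it also passed with no filter (0.0108) and under DESeq2 (0.0214). The neighbouring pseudogene H2-K2 had 7.27, 8.64 and 8.78 CPM in control and 11.9, 15.6 and 29.2 CPM in CPN. Those groups did not overlap, but the difference did not pass (edgeR adjusted p = 0.0876). H2-M3, which presents formylated peptides of bacteria and mitochondria, had 22.98, 22.9 and 15.1 CPM in control and 24.5, 48.9 and 16.3 CPM in CPN, and did not pass (edgeR adjusted p = 0.415). The high value was that of CPN 2 alone.

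Among T-region genes, H2-T23, which encodes the Qa-1 ligand of NK cell receptors, had 9.04, 2.76 and 9.48 CPM in control and 5.65, 6.69 and 6.46 CPM in CPN, a log2 fold change of -0.18 ± 0.613 (SE, n = 3). H2-T24 had means of 6.85 ± 2.89 and 6.83 ± 3.19 CPM (SD, n = 3) in control and CPN. Neither passed, with edgeR adjusted p of 0.898 for H2-T23 and 0.999 for H2-T24. H2-T22 encodes a ligand of gamma-delta T cells. The rows of H2-T22 and H2-T9 carried the same count in 4 of 6 libraries, so the 2 rows are not independent measurements. H2-T22 counts were 89, 80 and 102 in control and 105, 101 and 147 in CPN, and the groups of H2-T22 did not overlap, but its log2 fold change of 0.54 ± 0.398 did not pass (edgeR adjusted p = 0.438). H2-T9 differed from it only in CPN 1, with 96 counts, and CPN 2, with 100 (edgeR adjusted p = 0.49). H2-T10, a polymorphic pseudogene in GENCODE, varied from 0.24 to 5.38 CPM in control and from 0.497 to 8.29 CPM in CPN (edgeR adjusted p = 0.777).

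Class I copies can share reads, and the deposited counts do not separate unique from shared alignments. In the last 300 bases of the longest protein-coding GENCODE transcript, 0.797% of 50-base windows of H2-D1 also occurred in a transcript of another member, H2-K1, and the same held in the other direction. Counting other genes as well, 17.1% of the H2-D1 windows and 50.6% of the H2-T23 windows occurred elsewhere. For H2-T22 the share was 49.4%, all of it with H2-T10, and for H2-K2, H2-T24 and H2-M3 it was 0. No such check was made for H2-L, H2-Q8, H2-Q9 and H2-T9, which had no GENCODE vM21 entry by symbol, and the read length is not given in the sources used here. Because a sum over the copies does not depend on how reads were divided among them, unless reads were counted in several rows, the 32 heavy chain rows were also added up. The control sums were 626, 785 and 681 CPM and the CPN sums 1247, 1478 and 1393 CPM, a ratio of means of 1.97. H2-D1 made up 73.2% to 84.3% of these counts, which were not divided by length because QuantSeq reads transcript ends, and without H2-D1 the ratio was 1.70, from 152 ± 15.4 to 259 ± 56.5 CPM (SD, n = 3).

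**Figure D2:**
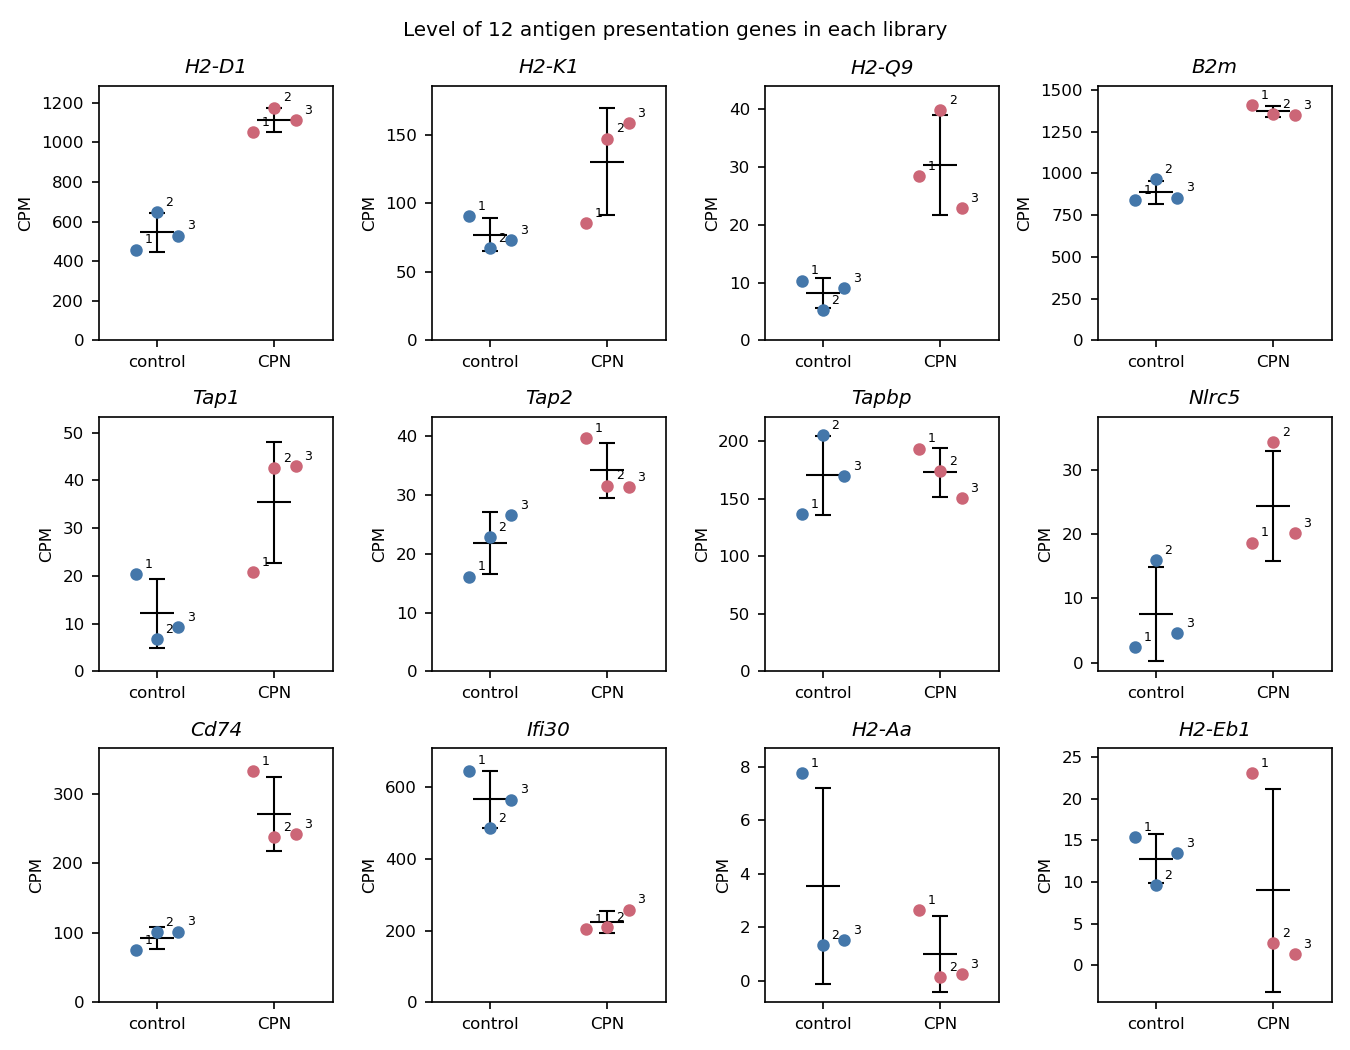
Level in CPM (y axis, linear, 0 included) of 12 genes in control (blue) and CPN (red) libraries; points are libraries with their replicate number and bars the mean ± SD of 3. H2-D1, H2-Q9, B2m, Cd74, Tap1, Tap2 and Nlrc5 separate upwards and Ifi30 downwards. For Tap1 the gap is narrow (CPN 1 at 20.8, control 1 at 20.3 CPM), and Tap2 and Nlrc5 did not pass the test. The CPN 1 point of H2-K1 lies within the control range, and the CPN 1 point of H2-Eb1 (23.1 CPM) stands above all other libraries.

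B2m encodes the light chain that every class I heavy chain needs to reach the cell surface (chromosome 2, 122147686 to 122153083, plus strand). It had 841, 967 and 854 CPM in control and 1407, 1355 and 1349.7 CPM in CPN. The 3 CPN values were closely spaced and above all controls, and B2m rose 1.54-fold (log2 fold change 0.63 ± 0.139, SE, edgeR adjusted p = 0.00912). The call ended without control 1 (edgeR adjusted p = 0.053) or without control 3 (0.0681), with log2 fold changes of 0.59 and 0.60. Within libraries, B2m divided by that sum was 1.34, 1.23 and 1.25 in control and 1.13, 0.917 and 0.969 in CPN, with no overlap and means of 1.28 ± 0.0598 and 1.005 ± 0.111 (SD, n = 3). This difference in ratio was not tested. Patl2, the row that overlaps B2m in the annotation, had 0 counts.

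Of the 5 class I loading genes, Tap1 was the one that rose. It encodes a subunit of the peptide transporter (chromosome 17, 34187553 to 34197225, plus strand) and had 20.3, 6.84 and 9.24 CPM in control and 20.8, 42.5 and 43.0 CPM in CPN. CPN 1 lay barely above control 1, while CPN 2 and CPN 3 were more than 2 times every control. The log2 fold change was 1.54 ± 0.431 (SE, edgeR adjusted p = 0.0313), and the call ended without control 3, CPN 2 or CPN 3 (edgeR adjusted p = 0.125, 0.129 and 0.118). Tap1 overlaps Psmb9 by 212 bases on the opposite strand, and Psmb9 had 723 counts beside 1186 for Tap1. The partner subunit gene Tap2 (chromosome 17, 34203527 to 34216321) had 16.1, 22.9 and 26.6 CPM in control and 39.7, 31.6 and 31.3 CPM in CPN. Its groups did not overlap, but the log2 fold change of 0.65 ± 0.288 did not pass (edgeR adjusted p = 0.171).

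Tapbp, which encodes tapasin, the bridge between TAP and empty class I molecules, had 137, 205 and 169.6 CPM in control and 194, 174 and 151 CPM in CPN. The groups covered the same range, and the log2 fold change was 0.021 ± 0.193 (SE, edgeR adjusted p = 0.966), with a sign that changed under 3 of 13 alternative settings, one of them library totals alone. Tapbpl, the gene of a tapasin-related peptide editor, was at 5.59 ± 1.18 CPM in control and 9.87 ± 4.78 CPM in CPN (edgeR adjusted p = 0.393). Its CPN 1 value of 15.3 CPM was the highest. Erap1 was at 20.2 ± 4.23 and 23.2 ± 10.2 CPM and did not pass either (edgeR adjusted p = 0.8). Rows of other genes overlap Tapbp (Zbtb22, 1489 counts), Tapbpl (Vamp1, 649) and Erap1 (Cast, 2171).

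Nlrc5, the class I coactivator gene (chromosome 8, 94434356 to 94527272, plus strand), had 2.36, 15.95 and 4.56 CPM in control and 18.6, 34.2 and 20.1 CPM in CPN. All 3 CPN values were above the controls, but control 2 lay close to CPN 1, and the log2 fold change of 1.68 ± 0.589 did not pass (edgeR adjusted p = 0.08). Without control 2 it passed at 2.83 (edgeR adjusted p = 0.000672). It also passed under DESeq2, limma-voom and the fit with no filter, so this call depended on the setting. Ciita, the coactivator that class II genes require, had 2 counts, both in CPN 2, and was at 0 in the other libraries. In these libraries 3 counts, the limit that a count of 0 allows, are 0.295 to 0.393 CPM, and this limit covers counting error only.

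**Figure D3:**
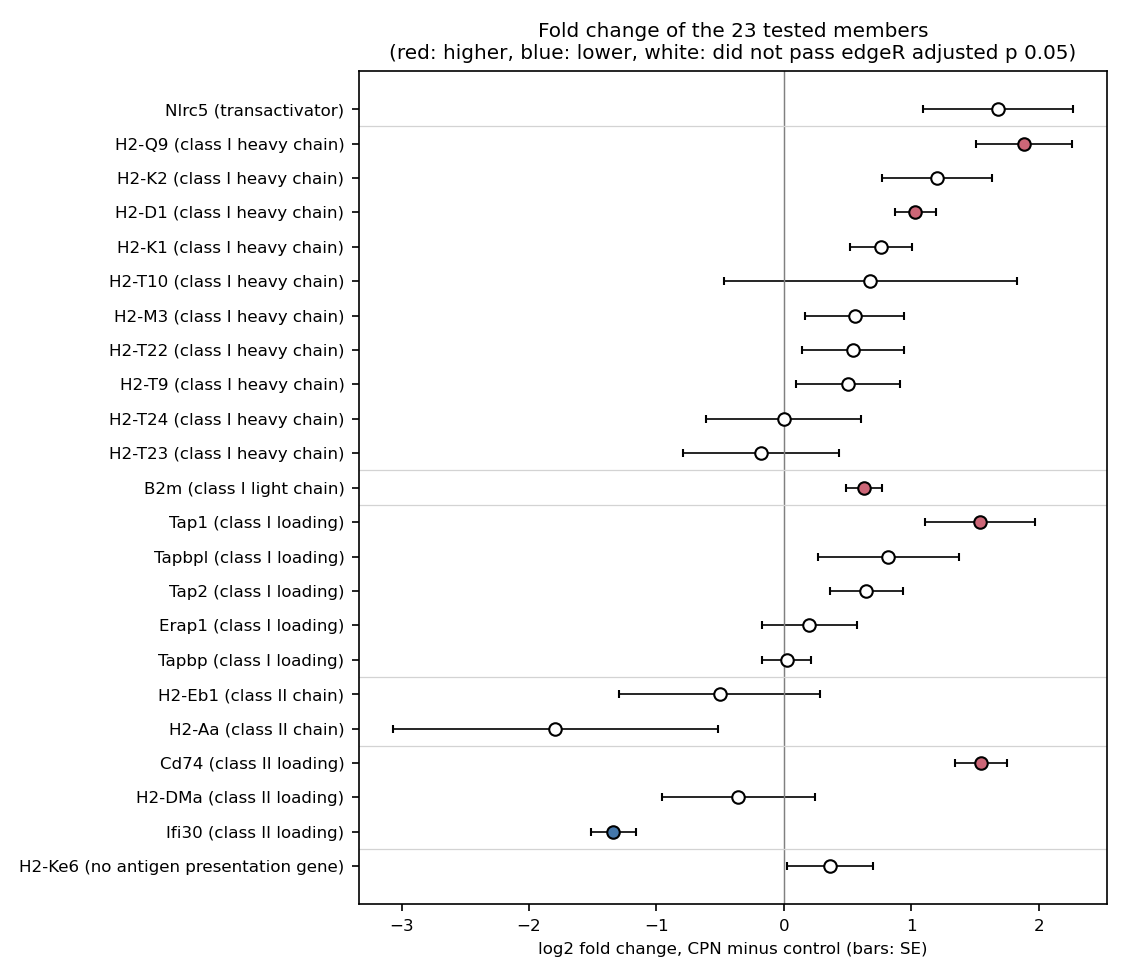
Log2 fold change of CPN minus control (x axis) for each of the 23 tested members (y axis), ordered by role; bars are SE, red points are higher, blue points are lower and white points did not pass the edgeR adjusted p of 0.05. The red points are H2-Q9 (1.88), H2-D1 (1.03), B2m (0.63), Tap1 (1.54) and Cd74 (1.55), and the blue point is Ifi30 (-1.34).

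In the class II pathway 1 of 5 tested members rose, the invariant chain gene Cd74, and 1 fell, Ifi30 (all genes: 7.63% and 6.39%), while neither tested chain gene passed. Cd74 had 74.6, 101 and 102 CPM in control and 332, 237 and 242 CPM in CPN. Each CPN value was more than 2 times each control, and the rise of 1.55 ± 0.203 on the log2 scale (SE, edgeR adjusted p = 0.000263) was called in 13 of 13 alternative settings. Ifi30 (chromosome 8, 70762774 to 70766663, minus strand) had 647, 487 and 565 CPM in control and 204, 209.8 and 258 CPM in CPN. Its groups did not overlap, and it fell 2.53-fold (log2 fold change -1.34 ± 0.174, SE, edgeR adjusted p = 0.000249), also in 13 of 13 alternative settings.

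The class II chain genes were low and varied by library. H2-Eb1, the beta chain of the E molecule (chromosome 17, 34305867 to 34316674), had 15.4, 9.59 and 13.5 CPM in control and 23.1, 2.62 and 1.37 CPM in CPN. CPN 1 was above every control, while CPN 2 and CPN 3 were below every control, and the log2 fold change of -0.50 ± 0.789 did not pass (edgeR adjusted p = 0.754). Without CPN 1 H2-Eb1 was lower at -2.68 (edgeR adjusted p = 0.0309). H2-Aa, the alpha chain of the A molecule (chromosome 17, 34282744 to 34287823), had 7.76, 1.32 and 1.52 CPM in control and 2.64, 0.131 and 0.248 CPM in CPN. Here control 1 was the highest library and CPN 1 the next, and the log2 fold change of -1.79 ± 1.27 did not pass (edgeR adjusted p = 0.422). It was -0.48 without control 1 and -4.12 without CPN 1, and passed in neither case (0.917 and 0.166).

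H2-Ab1, the beta chain of the A molecule, was too low to test, with 11, 0 and 3 counts in control and 15, 0 and 1 in CPN. H2-DMa, a subunit of the class II peptide exchange factor, had 7.86, 5.40 and 11.5 CPM in control and 10.9, 4.59 and 3.73 CPM in CPN (edgeR adjusted p = 0.774). It overlaps Brd2, which had 22574 counts against 379 for H2-DMa, and without the use of strand being given, reads where both lie cannot be attributed to one of them. The partner H2-DMb1 had 5, 0 and 17 counts in control and 0, 4 and 0 in CPN. Over the chain, DM and O rows, the control sums were 32.6, 16.3 and 28.8 CPM and the CPN sums 38.7, 7.87 and 5.47 CPM.

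**Figure D4:**
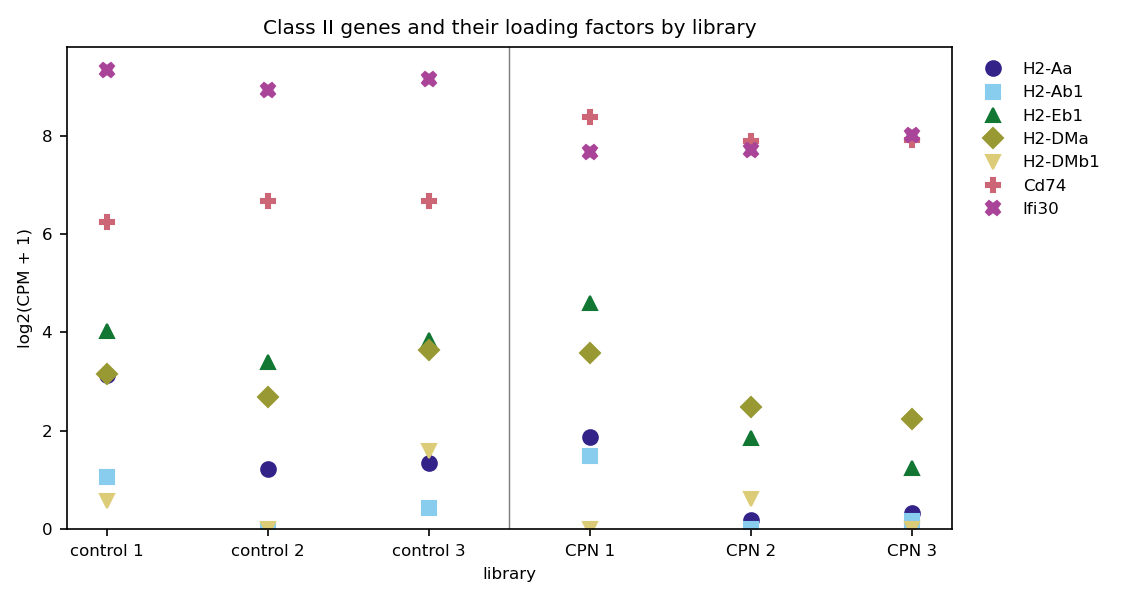
Level as log2(CPM + 1) (y axis, from 0) of class II chain genes, DM genes, Cd74 and Ifi30 in each library (x axis). Cd74 is higher and Ifi30 lower in all 3 CPN libraries, whereas H2-Eb1, H2-Aa, H2-Ab1 and H2-DMa are each higher in CPN 1 than in CPN 2 and CPN 3.

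Libraries also differed in how complete their low counts were, and this is given beside the low class II rows. Among 707 genes with a mean of 6 to 12 counts, the share at 0 was 36.9%, 39.9% and 23.8% in the controls and 14%, 41.2% and 37.8% in the CPN libraries, with total counts between 7957228 and 9713938 per library. CPN 1 thus had the fewest zeros and the highest class II sum, while control 1 had a high class II sum with many zeros. The part of this in the class II values was not tested. Dendritic cells are rich in class II molecules. Of 8 dendritic cell markers 3 were at 0 (Flt3, Cd209a and Siglech). The summed level was 21.4 to 27.03 CPM in control, mostly from the integrin gene Itgax, and 2.36 to 4.98 CPM in CPN. Itgax fell (edgeR adjusted p = 0.000852). Xcr1, the other of 2 tested markers, was at 1.43 ± 0.753 and 2.10 ± 1.11 CPM (SD, n = 3) and did not pass (edgeR adjusted p = 0.82). Counts in control and CPN were 19 and 10 for Zbtb46, 23 and 0 for Clec9a and 0 and 12 for Ccr7, all below the filter. The part of these markers in the class II values was not tested. Of 8 macrophage markers 7 were above 0 and Mertk was at 0, with sums of 1874 to 2389 CPM in control and 2257 to 2884 CPM in CPN. Of the 7 tested, 3 rose and 0 fell: Adgre1 3.45-fold, Itgam 3.94-fold and Fcgr1 14.1-fold (edgeR adjusted p = 0.000608, 5.43e-05 and 0.00338). Osteoclast markers summed to 3271 to 3537 CPM in control and 954 to 1514 CPM in CPN, with 6 of 7 tested genes lower and 1 higher, granulocyte markers to 1.40 to 2.55 and 21.6 to 39.1 CPM, stromal markers to 0 to 6.24 and 12.2 to 13.8 CPM, and T cell markers to at most 0.786 and 3.02 CPM. S100a8, at 18.7, 34.6 and 17.9 CPM in CPN, made up most of the granulocyte sum there, with Elane at 0 and S100a9 at 1 count. Dcn, at 11.3, 7.74 and 12.2 CPM in CPN and 0 in control, made up most of the stromal sum there.

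Most of the other members were at or near 0. Of the 53 members, 17 had no count in any library. These were the class II genes H2-Ob, H2-Eb2, H2-DMb2 and H2-Ea-ps, the class I rows H2-L, H2-Q6 and H2-T3, and 10 of the 12 H2-M rows. H2-L has no GENCODE vM21 entry by symbol, and whether its reads could be counted in its row was not tested. A further 13 were above 0 but below the filter, with at most 47 counts over all libraries. H2-Q4 had 31 counts in control, all in control 1, and 16 in CPN. H2-Q8 had 1 count in control and 19 in CPN, of which 16 were in CPN 3. H2-M10.1, a vomeronasal class I gene, had 0 counts in control and 3, 10 and 3 in CPN. Totals for control and CPN were 3 and 11 for H2-Q10, 5 and 10 for H2-Q7, 8 and 1 for H2-Q5, 3 and 3 for H2-Q1, 1 and 0 for H2-Q2, 0 and 4 for H2-Bl and 0 and 2 for H2-Oa. H2-Ke6 lies in the MHC but encodes a hydroxysteroid dehydrogenase and presents no antigen. It was at 21.9 ± 8.17 and 28.1 ± 6.98 CPM (SD, n = 3) and did not pass (edgeR adjusted p = 0.57).

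Partners of the pathway outside the membership were read from 4 lists. In peptide supply and class I folding, 5 of 15 tested genes rose and 0 fell, beside 7.63% higher and 6.39% lower of all genes tested, with a median log2 fold change of 0.38. The lectin chaperone gene Calr rose from 1097 ± 341 to 3020.5 ± 252 CPM (SD, n = 3, edgeR adjusted p = 0.00047), and Pdia3, whose product ERp57 sits in the class I loading complex, rose 3.13-fold (edgeR adjusted p = 0.000424). Sec61a1, of the translocon, rose 2.19-fold and Uggt1, the folding sensor of glycoproteins, rose 1.80-fold. Canx, the calnexin gene, was the other riser at 1.58-fold, named after its values were seen. The edgeR adjusted p was 0.000951 for Sec61a1, 0.0193 for Uggt1 and 0.0238 for Canx. The call of Uggt1 ended without control 1, CPN 1 or CPN 2 (edgeR adjusted p = 0.0882, 0.0923 and 0.0652). These risers are folding and translocon genes. The 10 genes that did not pass include the proteasome genes Psmb8, Psmb9 and Psmb10 (edgeR adjusted p = 0.0556, 0.911 and 0.423). They also include the proteasome activator genes Psme1, Psme2 and Psme3 (0.748, 0.0852 and 0.631) and the peptidase genes Lnpep and Npepps (0.581 and 0.58). Those genes were named after their values were seen. At an unadjusted p under 0.05, 7 of these 15 genes passed, beside 2916 of all 11092 genes tested.

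Among class II pathway proteases and traffic genes, 3 of 12 tested rose and 1 fell (all genes: 7.63% and 6.39%), with a median log2 fold change of 0.17. Ctss, encoding cathepsin S, the protease that trims the invariant chain, had 692, 969.6 and 730.2 CPM in control and 383, 413 and 427 CPM in CPN. It fell 1.96-fold (edgeR adjusted p = 0.0019), with no overlap. Ctsl, encoding cathepsin L, moved the other way, from 246 ± 137 to 1071 ± 83.8 CPM (SD, n = 3, edgeR adjusted p = 0.000438). Ctsb, a further lysosomal cathepsin gene, and March8, a ubiquitin ligase gene whose product lowers surface proteins, rose 1.49-fold and 1.66-fold at edgeR adjusted p of 0.0493 and 0.0458. Leaving out control 1, control 3, CPN 2 or CPN 3 ended the call of Ctsb, at edgeR adjusted p from 0.158 to 0.22. Leaving out any 1 of the 6 libraries ended that of March8, at 0.0567 to 0.169.

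Of 7 tested class I-like genes without an H2- symbol, 1 rose and 0 fell (all genes: 7.63% and 6.39%), with a median log2 fold change of -0.27. This was Procr, the endothelial protein C receptor gene, at 0, 6.48 and 1.17 CPM in control and 59.4, 77.1 and 45.2 CPM in CPN (log2 fold change 4.60 ± 0.804, SE, edgeR adjusted p = 0.00201). The size of this rise depended on the libraries and the tool, at 6.77 without control 2, 3.98 without control 1 and 6.54 with limma-voom, all on the log2 scale. Fcgrt, H60b and Ulbp1 followed by p and did not pass (edgeR adjusted p = 0.497, 0.735 and 0.776). Among 18 transcription factor and coactivator genes of MHC promoters, 1 rose and 1 fell, shares close to the 7.63% and 6.39% of all genes tested, with a median of -0.25. Irf8, an interferon regulatory factor of the myeloid lineage, had 14.1, 45.3 and 39.0 CPM in control and 104, 75.3 and 57.8 CPM in CPN (edgeR adjusted p = 0.0359), and Spi1, encoding PU.1, fell 1.51-fold (0.0335). Leaving out control 1, control 3, CPN 1 or CPN 2 ended the Irf8 call, at edgeR adjusted p of 0.0738, 0.0747, 0.16 and 0.101. For Spi1 the same held for control 1, control 3, CPN 2 and CPN 3, at 0.112, 0.0769, 0.135 and 0.112. Ep300 and Nfkb1 were next by p and did not pass (edgeR adjusted p = 0.134 and 0.212).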

How the data were processed

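RNA from 3 control and 3 CPN samples of RAW 264.7 cells was prepared with the QuantSeq kit, which reads the 3′ ends of transcripts, after Trizol extraction, per the labels' protocols. The authors deposited whole-number counts per gene row, each sample in its own table. Bowtie2, bedtools and the mm10 build are named, per the submitters' processing notes. Not given in the sources used here were their versions, the gene annotation, strand use and the handling of multiply aligned reads.

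The differential test used edgeR 4.0.16 under R 4.3.3: TMM scaling, filterByExpr (minimum count 10, minimum total 15), and the quasi-likelihood test on 11092 genes with Benjamini-Hochberg adjustment over all of them, at 0.05. The code was tested on simulated counts. The SE is the log2 fold change divided by the square root of F. Positions and overlaps came from GENCODE vM21 (1 entry for 49 of 53 members) and promoter windows from RefSeq. Other settings tried were DESeq2 1.42.0 and its size factors, limma-voom (limma 3.58.1), library totals alone, no filter or 1 CPM in 3 samples, a replicate block, and single libraries left out. The members, the lists and the rule for naming genes (all members, and the 4 smallest p in each list) were chosen with earlier results of these data known. One list of cell type markers is not reported here.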

Additional observations from a re-analysis of the deposited data

How the results depend on the processing

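The counts of 5 higher and 1 lower members were the same with DESeq2-type size factors, with library totals alone, with a filter of 1 CPM in 3 samples and with the replicate block. DESeq2 and the fit with no filter gave 7 higher, limma-voom gave 6, and each gave 1 lower. With 1 library left out there were 3 to 6 higher and 1 to 2 lower members, fewest higher without control 3. A setting added after the data were seen left out control 3 and CPN 1, which had the fewest zeros. It gave 2 higher and 1 lower members, and 446 genes passed in all against 1555. B2m, Tap1 and H2-Q9 were lost there, at edgeR adjusted p of 0.132, 0.13 and 0.0847. The cause was not tested.

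The folding list gave 3 higher with library totals alone, 3 to 5 with 1 library left out and 3 in the added setting. The class II protease list gave 1 higher and 2 lower with library totals alone, 2 lower with no filter, DESeq2 or limma-voom, 1 to 3 higher and 1 to 2 lower with 1 library left out, and 1 higher in the added setting. The class I-like list gave 0 higher in the added setting. The transcription factor list gave 0 higher and 0 lower with the replicate block and in the added setting, 0 to 1 each with 1 library left out, and 0 higher with library totals alone. The cause was not tested.

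Genes that had not passed changed sign in some settings. With 1 library left out, log2 fold changes ran from -0.12 to 0.51 for Erap1, -0.12 to 0.19 for Tapbp, -2.68 to 0.0071 for H2-Eb1, -0.44 to 0.35 for H2-T24, -0.55 to 0.082 for H2-T23, -0.32 to 1.77 for H2-T10 and -0.70 to 0.081 for H60b. Tapbp was -0.093 with library totals alone and -0.073 in the added setting. H2-T24 was 0.0045 with DESeq2-type size factors, 0.0045 with DESeq2, 0.027 with limma-voom and 0.15 in the added setting, and H2-T23 was 0.15 there.

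Samples with the same replicate number did not deviate together (r across genes of -0.051, 0.020 and 0.028 for numbers 1 to 3). The samples were therefore not treated as pairs, but with 3 libraries per group these values cannot exclude that same-numbered samples were handled together. With the replicate block 1326 genes passed, 5 members were higher and 1 lower, Tap1 had an adjusted p of 0.061 and Nlrc5 one of 0.0171. With library totals alone the median over all genes was -0.13, against -0.0078. At a depth of 7957228 to 9713938 counts, 13 members with at most 47 counts could not be tested, and the limit for a count of 0 covers counting error only.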
